A study of Mus musculus with 30 samples.

Results

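AP-1 is a family of transcription factors built from Fos and Jun proteins, and the genes followed here are its 7 classical members: Fos, Fosb, Fosl1 and Fosl2, which encode the Fos side, and Jun, Junb and Jund, which encode the Jun side. They were taken by gene symbol from the 56941 Ensembl genes counted in each library, and all 7 had a row. The cells were mHypoA-2/12, an immortalized line derived from the adult mouse hypothalamus, which is a single line and not hypothalamic tissue. Cultures received cannabidiol (CBD), a non-intoxicating compound of Cannabis sativa, at 0.325, 0.75, 1.5 or 3 µM, or the vehicle, 0.1% DMSO in DMEM with GlutaMAX, and were harvested after 6 h or 24 h. Each of the 10 groups held 3 libraries of 3′ mRNA-Seq. The labels do not say whether these came from separate cultures, so p-values measure the spread between libraries, which may be technical, and each time point had its own vehicle libraries.

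AP-1 proteins act in pairs through a basic leucine zipper. A Jun protein can pair with another Jun or with a Fos protein, whereas Fos proteins need a Jun partner to bind DNA. Fos, Fosb, Jun and Junb are immediate-early genes: growth factors, stress and calcium entry raise their transcription within minutes through MAP kinases, serum response factor and CREB, and their messengers are short-lived. Fosl1 and Fosl2 (Fra-1 and Fra-2) are usually expressed later and for longer, and Jund is expressed in many resting cells. Fos is widely used in the hypothalamus to mark neurons that were recently active, and FosB and its truncated form ΔFosB are studied for long-lasting responses to drugs. Junb and Jund proteins are weaker activators than Jun and can oppose it.

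In GENCODE annotation on GRCm38, an older mouse assembly than the one the reads were counted on, Fos (ENSMUSG00000021250) lies on the plus strand of chr12:85473890-85477273, and Jun (ENSMUSG00000052684), a gene of a single exon, on the minus strand of chr4:95049034-95052222. Fosb (ENSMUSG00000003545) is on the minus strand of chr7:19302696-19310051, and Junb (ENSMUSG00000052837) on the minus strand of chr8:84974484-84978718. Fosl1 (ENSMUSG00000024912) was at chr19:5447547-5455946, Fosl2 (ENSMUSG00000029135) at chr5:32135801-32157842 and Jund (ENSMUSG00000071076) at chr8:70698949-70700616, all on the plus strand. Junb overlaps Prdx2 on the opposite strand, a gene with 19914 reads over the 30 libraries, Fosl1 overlaps Ccdc85b, with 1942 reads, and Jun overlaps the antisense Junos, with 45 reads. Whether the counting used strand was not given in the sources used here, so the counts of these pairs are uncertain to that degree.

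The sequences directly before the start sites of the 4 immediate-early members are shown because these include Fosb and Junb, the members called at 6 h, and Fos and Jun, called with Fosb between the times in vehicle. Each run is the 250 bases before the RefSeq start on GRCm38.p6, read in the direction of the gene, and a RefSeq entry was found for 6 of the 7 members. Capitals mark matches to TGACTCA (the AP-1 site), TGACGTCA (the cyclic AMP element), TGACG (its core, contained in the full element), TGACATCA and TTACCTCA (the AP-1-like sites known from the Jun promoter) and, on the sense strand only, TATAAA. All others were searched on both strands, as was the CArG box of serum response factor by its name.
Fos, chr12:85473640-85473889, plus strand: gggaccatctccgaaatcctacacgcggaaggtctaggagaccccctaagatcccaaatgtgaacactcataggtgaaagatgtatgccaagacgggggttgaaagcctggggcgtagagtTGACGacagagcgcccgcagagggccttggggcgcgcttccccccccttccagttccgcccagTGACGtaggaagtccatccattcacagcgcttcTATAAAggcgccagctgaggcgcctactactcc
Fosb, chr7:19310046-19310295, minus strand: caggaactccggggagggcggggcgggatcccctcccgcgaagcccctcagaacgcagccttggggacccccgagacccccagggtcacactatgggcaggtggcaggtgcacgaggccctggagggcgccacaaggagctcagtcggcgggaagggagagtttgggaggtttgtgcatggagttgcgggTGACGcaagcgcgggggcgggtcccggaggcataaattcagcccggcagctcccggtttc
Jun, chr4:95052223-95052472, minus strand: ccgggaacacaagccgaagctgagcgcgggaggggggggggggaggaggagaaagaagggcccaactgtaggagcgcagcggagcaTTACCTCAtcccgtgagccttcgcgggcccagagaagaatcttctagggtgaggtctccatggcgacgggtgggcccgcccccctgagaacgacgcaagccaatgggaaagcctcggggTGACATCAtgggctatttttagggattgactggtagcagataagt
Junb, chr8:84978749-84978998, minus strand: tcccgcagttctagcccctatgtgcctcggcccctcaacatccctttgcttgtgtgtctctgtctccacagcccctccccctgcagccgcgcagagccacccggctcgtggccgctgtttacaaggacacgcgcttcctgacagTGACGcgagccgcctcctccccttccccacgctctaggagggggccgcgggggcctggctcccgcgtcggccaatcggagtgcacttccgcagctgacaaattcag

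The Jun window held both AP-1-like sites, TTACCTCA at positions -164 to -157 and TGACATCA at -45 to -38 from the start. Among 32851 mouse promoter windows of 250 bases, 0.728% held the first and 2.93% the second. Both sites are known from the Jun promoter, so their presence there was given in advance and these shares do not test it. The core TGACG occurred at -129 to -125 and -66 to -62 in Fos, at -60 to -56 in Fosb and at -106 to -102 in Junb, and in 17.8% of all windows. TATAAA stood at -33 to -28 in Fos and was present on the sense strand of 7.59% of windows. None of the 4 windows contained TGACTCA, TGACGTCA or a CArG box within these 250 bases, while 4.46%, 1.55% and 1.47% of all windows did. These matches describe letters and not bound sites.

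Reads on genes ranged from 1839621 to 4420675 per library, and between 17.7% and 22.2% of the counted reads lay outside genes. Levels are given as CPM, read counts scaled to library size with TMM factors over all 30 libraries. Library A3, a vehicle library of 6 h, had 3574833 gene reads and 17.9% of reads outside genes, against 1839621 and 1919498 reads and 21.4% and 20.8% in the other vehicle libraries of that time, and values without it are given where they differ. As the kit makes a single fragment at the 3′ end of each transcript, CPM was not divided by length, and values of different genes are set side by side on that scale. The labelled cell type was only partly visible in its markers. The neuronal Tubb3 was at a median of 50.6 CPM, but Snap25 had 4 reads over all 30 libraries, Npy 1 and Agrp 15. The summed level of 10 neuronal markers ran from 115 to 187 CPM, whereas that of 6 fibroblast or mesenchymal markers, among them Col1a1 and Vim, ran from 6281 to 8237 CPM. Astrocyte Aqp4 and oligodendrocyte Olig2 had no read, which allows up to 3 reads each, and the summed levels of astrocyte, oligodendrocyte, microglial and endothelial markers reached at most 20.02, 4.14, 52.5 and 2.96 CPM. What these marker levels contribute to the AP-1 values was not tested.

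Fosl2 was the most abundant member, with a mean of 198 CPM over the 30 libraries, followed by Junb with 182 CPM and Jun with 158 CPM. Jund averaged 66.2 CPM, Fos 31.4 CPM and Fosb 10.2 CPM. With all doses and both times pooled, the SDs of Fosl2, Junb and Jun were 31.8, 60.3 and 28.2 CPM. The order of these 3 changed with time. At 24 h every library had Fosl2 (169.8 to 263 CPM) above the whole range of Jun (120.1 to 162 CPM). In vehicle at 6 h the mean of Jun was the higher (215 against 182 CPM), with overlapping ranges. Jund (SD 19.1 CPM), Fos (SD 11.4 CPM) and Fosb (SD 6.07 CPM) followed below them, and the ranges of Jund and Fos still met (35.8 to 114 CPM and 14.3 to 58.3 CPM). Fosl1 was close to absent. It had 10 reads in all, in 7 of the 30 libraries and at most 3 in a library, and 3 reads correspond to 0.679 CPM in the deepest and 1.63 CPM in the shallowest library. It did not pass the filter on low counts, so that 6 of the 7 members were tested.

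**Figure D1:**
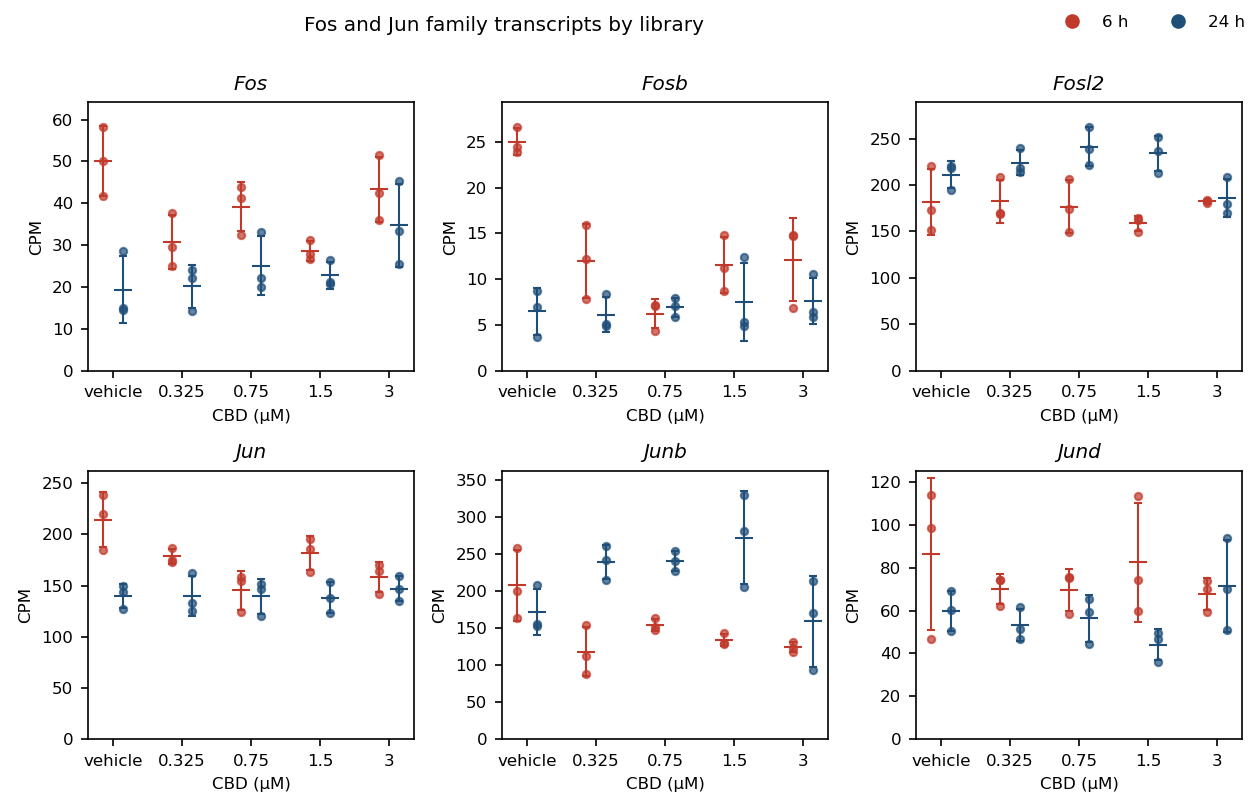
Levels of the 6 tested AP-1 members in CPM (vertical axes, linear from 0) against CBD dose in µM (horizontal axes, categories) at 6 h (red) and 24 h (blue), where each dot is a library and each bar the mean ± SD of 3 libraries. At 6 h the vehicle libraries of Fosb (23.9 to 26.7 CPM) stand above all CBD libraries (4.38 to 15.9 CPM), and Junb is at 152 to 208 CPM in vehicle and 205 to 329 CPM at the 3 lower doses after 24 h.

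After 6 h, Fosb and Junb had lower levels with CBD than with vehicle, and the other members did not pass the test. This comparison sets the mean of the 4 doses against vehicle in edgeR's quasi-likelihood test, adjusted by Benjamini-Hochberg over 12012 genes with a threshold of 0.1. It called 2 of the 6 members tested, both lower, against 0.749% of all genes, and for the same 2 members all 12 CBD libraries lay below all 3 vehicle libraries, which held for 0.724% of genes. All 6 log2 fold changes were negative, as were those of 6422 of 12012 genes, with a median of -0.45 beside -0.02 over all genes tested. With a vehicle library left out, Fosl2 turned to 0.11 (without A3) and Jund to 0.0261 (without A1). The summed level of the 7 members was 765 ± 30.7 CPM (SD, n = 3) in vehicle and ran from 550.3 to 637 CPM in the CBD libraries, whereas the vehicle libraries ran from 733 to 794 CPM. In bulk libraries, fewer cells that express a gene and less RNA per cell cannot be told apart.

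Fosb, the gene of FosB and ΔFosB, had 23.9, 26.7 and 24.4 CPM in the 3 vehicle libraries at 6 h. It had 15.9, 12.2 and 7.87 CPM at 0.325 µM, 7.14, 7.09 and 4.38 CPM at 0.75 µM, 11.2, 8.70 and 14.8 CPM at 1.5 µM and 14.7, 14.8 and 6.87 CPM at 3 µM. No CBD library reached the lowest vehicle library, and the 3 libraries at 0.75 µM included the lowest value. Its log2 fold change was -1.30 (standard error 0.24, edgeR FDR = 0.00995). These levels rest on few reads, with 11 to 88 per library over the whole series.

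Fos, the prototype immediate-early gene, was at 41.7, 50.2 and 58.3 CPM in vehicle. In the 12 CBD libraries it ran from 24.9 CPM through a median of 34.3 CPM to 51.5 CPM. The groups overlapped, 9 of the 12 CBD libraries lay below all vehicle libraries, and the log2 fold change of -0.53 (standard error 0.16, 95% interval -0.86 to -0.21) did not pass (edgeR FDR = 0.174). Fosl2, encoding Fra-2, was at 151, 173 and 220.2 CPM in vehicle and between 149 and 209 CPM, with a median of 172 CPM, in CBD. Its log2 fold change was -0.06, with a 95% interval from -0.31 to 0.18 (edgeR FDR = 0.913).

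On the Jun side, Junb was at 200.2, 164 and 259 CPM in vehicle. It was at 153, 88.3 and 112 CPM at 0.325 µM, at 151, 147 and 163 CPM at 0.75 µM, at 129, 143 and 128 CPM at 1.5 µM and at 118, 123 and 131 CPM at 3 µM. All CBD libraries lay below vehicle, by a narrow margin between the highest CBD library (163.48 CPM) and the lowest vehicle library (163.80 CPM). The log2 fold change was -0.67 (standard error 0.13, edgeR FDR = 0.0161), and without A3, the vehicle library with the most Junb, -0.47 (edgeR FDR = 0.0939).

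Jun, the prototype of the Jun proteins, was at 239, 219.8 and 185 CPM in vehicle and ran from 124 CPM through a median of 167 CPM to 195 CPM in CBD. Of the 12 CBD libraries, 9 lay below all vehicle libraries. The log2 fold change of -0.37 (standard error 0.11, 95% interval -0.60 to -0.15) did not pass in the main analysis (edgeR FDR = 0.161), and was past the threshold without library A3, the vehicle library with the least Jun (log2 fold change -0.47, edgeR FDR = 0.0411). Jund, the form expressed in resting cells, was at 114, 98.7 and 46.6 CPM in vehicle and between 58.5 and 114 CPM, with a median of 74.0 CPM, in CBD. The vehicle libraries of Jund spanned the whole CBD range, and its log2 fold change was -0.23 (95% interval -0.63 to 0.16, edgeR FDR = 0.751). Without A3, the vehicle library with the least Jund, it was -0.56 (edgeR FDR = 0.0978), so that 4 members were called without that library, when calls over all genes were 304 of 12324 against 90 of 12012 with it.

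**Figure D2:**
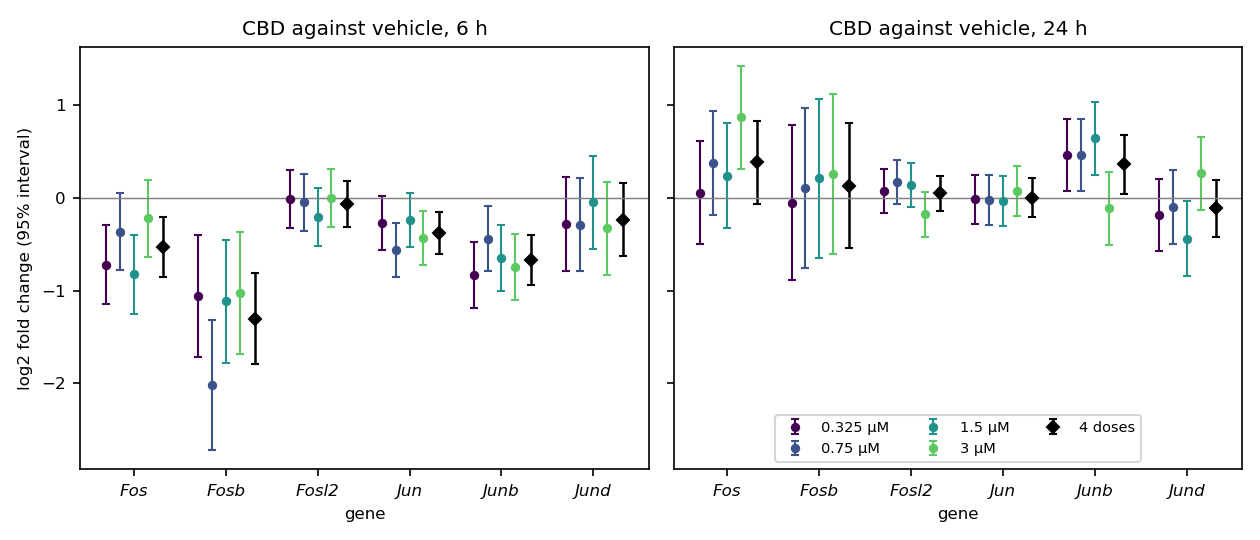
Log2 fold change of CBD against vehicle (vertical axis, with 95% intervals from the edgeR fit) for the 6 tested AP-1 members at 6 h (left) and 24 h (right), for each dose (colours) and the 4 doses together (black diamonds). At 6 h the joint estimates run from -1.30 for Fosb to -0.06 for Fosl2, and at 24 h from -0.11 for Jund to 0.39 for Fos.

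At the single doses, 2 calls were made among the members at 6 h. Junb was lower at 0.325 µM (log2 fold change -0.83, standard error 0.17, edgeR FDR = 0.0572), where 0.2% of genes were called, and Fosb at 0.75 µM (log2 fold change -2.02, standard error 0.34, edgeR FDR = 0.0213), where 0.0749% were. No member was called at 1.5 µM (0.0999% of genes) or 3 µM (0.05% of genes) in edgeR, whereas DESeq2 called 2 and 1. At each of these doses 3 members had an unadjusted p under 0.05 in edgeR, beside 950 and 872 of 12012 genes. Over all genes DESeq2 called 56 of 5724 at 1.5 µM and 48 of 10149 at 3 µM. At 3 µM, Junb had 118 to 131 CPM against 164 to 259 CPM in vehicle and missed the threshold (log2 fold change -0.75, edgeR FDR = 0.111), and the log2 fold change of Fosb was -1.03 (edgeR FDR = 0.364). Without A15 of 0.325 µM (edgeR FDR = 0.214) or A5 of 3 µM (edgeR FDR = 0.102) the call for Junb was lost, and without A12 of 0.75 µM that for Fosb (edgeR FDR = 0.510).

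Differences among the 4 doses were not detected at 6 h. Of 12012 genes, 0% were called for differences among the 4 doses in edgeR, with 452 at an unadjusted p under 0.05, and the members Fos and Fosb were among these. DESeq2 also called no member. Fos was at 43.4 ± 7.74 CPM (SD, n = 3) at 3 µM and 28.5 ± 2.40 CPM (SD, n = 3) at 1.5 µM, and against the 3 lower doses together the log2 fold change of 3 µM was 0.42 (95% interval 0.08 to 0.76, edgeR FDR = 0.905). That comparison called 0% of genes, with 624 at an unadjusted p under 0.05, among them 1 member.

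After 24 h, no member was called between CBD and vehicle in edgeR (0 of 6, beside 0.107% of 12118 genes), and DESeq2 called none. An unadjusted p under 0.05 in edgeR was found for 1 member, Junb, and for 815 of 12118 genes. At the single doses edgeR also called 0 of the 6 members at 0.325 µM (0.066% of genes), 0.75 µM (0.0825%), 1.5 µM (0.0413%) and 3 µM (0.00825%), and the numbers at an unadjusted p under 0.05 were 1, 1, 2 and 1. Over all genes these numbers were 1009, 924, 889 and 1110 of 12118. DESeq2 called no member at any of these doses. The joint log2 fold changes were small for Jun (0.00, 95% interval -0.21 to 0.21), Fosl2 (0.05, 95% interval -0.13 to 0.24) and Jund (-0.11, 95% interval -0.42 to 0.20). For Fosb the interval was wide (0.14, 95% interval -0.54 to 0.81), with vehicle at 3.73, 6.96 and 8.75 CPM and CBD between 4.86 and 12.4 CPM.

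Junb had 208, 155 and 152 CPM in the vehicle libraries of 24 h. It was at 242, 260.5 and 214 CPM at 0.325 µM, at 240.2, 254 and 227 CPM at 0.75 µM, at 329, 281 and 205 CPM at 1.5 µM and at 92.6, 214 and 171 CPM at 3 µM. Of the 12 CBD libraries, 9 stood above all vehicle libraries and 1, of 3 µM, below them. The joint log2 fold change was 0.37 (standard error 0.15, edgeR FDR = 0.692), and those of the single doses were 0.46, 0.47, 0.65 and -0.11 from the lowest dose to the highest. At 1.5 µM, Junb was past the threshold (edgeR FDR = 0.0690) without A16, the 3 µM library with 92.6 CPM. Calls over all genes for 1.5 µM were then 13 of 12521, against 5 of 12118 with A16.

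Fos was at 14.9, 28.5 and 14.5 CPM in vehicle at 24 h and at 45.3, 25.6 and 33.3 CPM at 3 µM. The groups overlapped, and the log2 fold change of that dose was 0.87 (standard error 0.27, edgeR FDR = 0.476). Without A17, the 3 µM library with the least Fos, it was 1.05 (edgeR FDR = 0.0637). Calls over all genes for that dose were 288 of 12582 without A17, against 1 of 12118 with it. The 9 libraries of the lower doses ran from 14.3 to 33.1 CPM, within which the 3 vehicle libraries also lay.

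At 24 h the highest dose was also compared with the lower ones, a comparison chosen with earlier results of these data known. Its FDR values are therefore not those of a comparison set in advance. Against the mean of 0.325, 0.75 and 1.5 µM, Junb and Fosl2 were lower and Jund and Fos higher at 3 µM, so that 4 of the 6 members tested were called beside 10.5% of all genes. Junb was at 159 ± 61.3 CPM (SD, n = 3) at 3 µM and at 205 to 329 CPM in the 9 libraries of the lower doses (log2 fold change -0.64, standard error 0.16, edgeR FDR = 0.0237). The groups overlapped, since 2 of the 3 libraries of 3 µM lay below all 9 and the other, with 214 CPM, did not.

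Fosl2 had 169.8, 209 and 179.7 CPM at 3 µM and 213 to 263 CPM at the lower doses. These groups did not overlap, as was true, in the lower direction, for 2.74% of genes (log2 fold change -0.31, standard error 0.10, edgeR FDR = 0.0590). Jund was at 69.9, 50.8 and 93.8 CPM at 3 µM against 35.8 to 65.5 CPM at the lower doses, with 2 of 3 libraries above all 9 (log2 fold change 0.50, standard error 0.16, edgeR FDR = 0.0529). Fos, at 45.3, 25.6 and 33.3 CPM against 14.3 to 33.1 CPM, likewise had 2 of 3 above all 9 (log2 fold change 0.64, standard error 0.21, edgeR FDR = 0.0706). No member had all libraries of 3 µM above the lower doses, which 1.86% of genes did. Jun (0.10, 95% interval -0.12 to 0.32) and Fosb (0.17, 95% interval -0.54 to 0.88) did not pass.

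The percentage of reads outside genes also differed between these groups. Such reads made up 21.4 ± 0.483% (SD, n = 3) of the reads at 3 µM and 21.4 ± 0.713% (SD, n = 3) in vehicle, but 19.4 ± 0.270%, 19.4 ± 0.611% and 19.8 ± 0.560% (SD, n = 3 each) at 0.325, 0.75 and 1.5 µM. When this percentage was added to the model, edgeR called 0 of the 6 members (4 before), while calls over all genes went from 1275 to 30 of 12118. An unadjusted p under 0.05 was then found for 1 member and for 1406 of 12118 genes. The log2 fold changes kept their sign and their standard errors were larger (0.31 against 0.16 for Junb), at -1.01 for Junb (edgeR FDR = 0.191), -0.36 for Fosl2 (edgeR FDR = 0.464), 0.40 for Jund (edgeR FDR = 0.652) and 0.83 for Fos (edgeR FDR = 0.447). The number of members called was 0 without A16 of 3 µM (68 of 12521 genes called) and 1 without A18 of 3 µM (447 of 12583 genes). It was 2 without A19 of 1.5 µM (913 of 12568 genes) and 2 without A24 of 0.75 µM (942 of 12597 genes). Without A16 the log2 fold change of Junb was -0.37 (edgeR FDR = 0.241). The call for Fos was also lost without A21 (edgeR FDR = 0.102), A23 (edgeR FDR = 0.123) or A25 (edgeR FDR = 0.120), and that for Fosl2 without A26 (edgeR FDR = 0.106), all libraries of the lower doses. Jund missed the threshold when all 30 libraries were fitted together (edgeR FDR = 0.147). The part of library make-up in these differences was not tested.

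**Figure D3:**
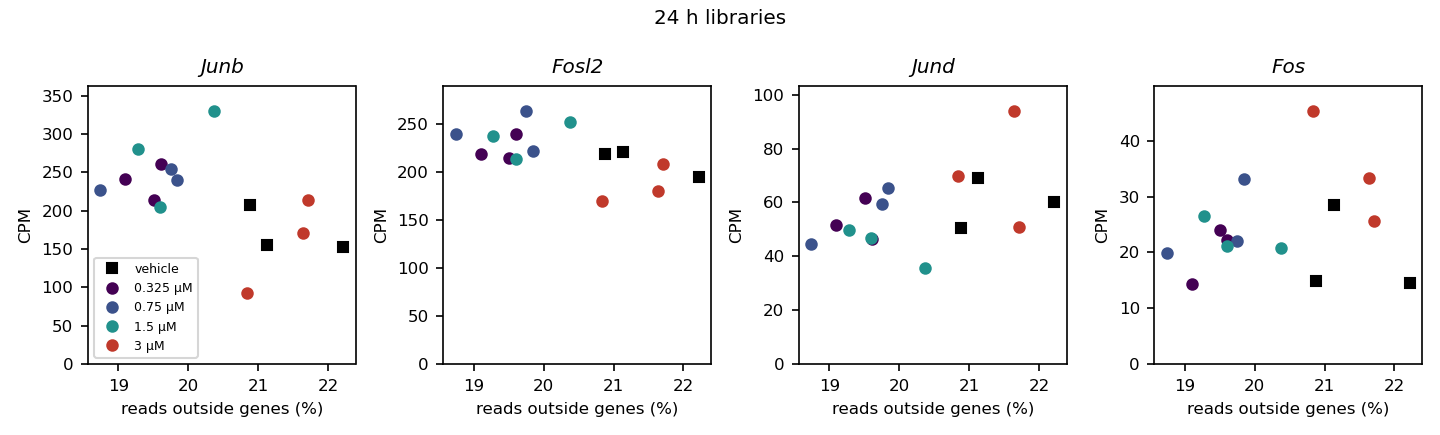
CPM of Junb, Fosl2, Jund and Fos (vertical axes, linear from 0) against the percentage of reads outside genes (horizontal axes) in the 15 libraries of 24 h, a point per library, with vehicle as black squares, the 3 lower doses as blue to green circles and 3 µM as red circles. The 3 µM and vehicle libraries lie between 20.8% and 22.2%, the 9 libraries of the lower doses between 18.7% and 20.4%.

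The test of any difference among the 4 doses at 24 h, which does not single out 3 µM, called no member in edgeR (1.93% of genes were called). An unadjusted p under 0.05 was found for 4 members and for 1753 of 12118 genes. Junb came nearest (edgeR FDR = 0.138), followed by Jund (edgeR FDR = 0.198), Fosl2 (edgeR FDR = 0.276) and Fos (edgeR FDR = 0.278). Of the members, DESeq2 called Junb alone (DESeq2 FDR = 0.0634), where it called 526 of 8359 genes. Junb was also called by edgeR without A21 of 1.5 µM (edgeR FDR = 0.0815) or A27 of 0.325 µM (edgeR FDR = 0.0810), and Junb, Jund and Fos were without A17 of 3 µM. Calls over all genes, 234 of 12118 with every library, were 211 of 12444 without A21. They were 534 of 12432 without A27 and 1085 of 12582 without A17.

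In vehicle, 3 of the 6 members tested, Fos, Fosb and Jun, were lower at 24 h than at 6 h, beside 26.7% of all genes called in either direction. The libraries of these 3 did not overlap between the times, which in that direction held for 15.9% of genes. Fos went from 41.7, 50.2 and 58.3 CPM to 14.9, 28.5 and 14.5 CPM, for a log2 fold change of -1.40 with a standard error of 0.25 (edgeR FDR = 0.000124). Fosb went from 23.9, 26.7 and 24.4 CPM to 3.73, 6.96 and 8.75 CPM, for a log2 fold change of -1.97 with a standard error of 0.36 (edgeR FDR = 0.000194).

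Jun went from 239, 219.8 and 185 CPM to 143, 149 and 127 CPM, with the lowest library of 6 h above the highest of 24 h (log2 fold change -0.61, standard error 0.14, edgeR FDR = 0.00135). Junb (log2 fold change -0.28, 95% interval -0.68 to 0.12), Jund (-0.50, 95% interval -0.98 to -0.03, edgeR FDR = 0.129) and Fosl2 (0.21, 95% interval -0.06 to 0.48) did not pass. Without A3 of 6 h, 5 members were called (2652 of 13100 genes, against 3411 of 12790 with it), with Jund at -0.82 (edgeR FDR = 0.00878) and Fosl2 at 0.39 (edgeR FDR = 0.0559). What differed between the times besides the hours cannot be told apart from time.

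In CBD-treated cells all 6 members tested differed between the times, in a comparison that called 53.6% of genes. Junb was higher at 24 h (mean 227 CPM against 132 CPM, log2 fold change 0.76, edgeR FDR = 9.97e-08), with 11 of 12 libraries above all 12 of 6 h. Fosl2 was higher as well (221 CPM against 175 CPM, log2 fold change 0.33, edgeR FDR = 9.76e-05). Fosb (-0.53), Fos (-0.48), Jund (-0.38) and Jun (-0.23) were lower on the log2 scale, with overlapping libraries for each.

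The change with CBD was tested for a difference between the times, as the interaction of the 2 comparisons with vehicle over 12790 genes. Junb was called (0.235% of genes were): its change was -0.67 at 6 h and 0.37 at 24 h, and the later change was 1.04 higher on the log2 scale (standard error 0.22, edgeR FDR = 0.0644). DESeq2 also called 1 member, beside 49 of 11798 genes. The call was lost in edgeR without any of A3 (6 h vehicle), A4 or A5 (3 µM, 6 h), A11 (0.75 µM, 6 h), A29 or A30 (24 h vehicle), with an FDR of 0.275 without A3 and 0.1002 to 0.195 without the others. Calls over all genes, 30 of 12790 with every library, also fell in these fits. They were 16 of 13100 without A3, 6 of 13104 without A4 and 7 of 13196 without A5. Without A11, A29 and A30 they were 6 of 13107, 2 of 13115 and 7 of 13103. Without A28 (24 h vehicle), where Junb was still called, they were 4 of 13104. The differences for Fosb (1.44, standard error 0.41, edgeR FDR = 0.234) and Fos (0.92, standard error 0.28, edgeR FDR = 0.294) did not pass. Jun (0.38), Fosl2 (0.12) and Jund (0.12) had smaller ones.

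Genes around AP-1 were examined in 5 lists at 6 h with the 4 doses together, where 0.749% of all genes were called. The lists were chosen with earlier results of these data known. Their counts, here and at 24 h, are therefore descriptions and do not test the lists against that share. Among other immediate-early genes, 8 of the 19 tested were lower in CBD and 0 higher, and the median log2 fold change was -0.52. Ppp1r15a, which encodes GADD34 and restores translation after stress, was at 11.6 ± 2.30 CPM (SD, n = 12) in CBD and 34.0 ± 8.62 CPM (SD, n = 3) in the vehicle libraries (log2 fold change -1.57, edgeR FDR = 0.000382). Nr4a1, an orphan nuclear receptor (-1.14, edgeR FDR = 0.0205), Klf6 (-0.50, edgeR FDR = 0.0301) and Egr1 (-0.65, edgeR FDR = 0.0437), which encode zinc finger factors, and Zfp36 (-1.04, edgeR FDR = 0.0608), whose protein destabilizes messengers, were lower too.

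Of 18 genes known as AP-1 targets, 2 rose and 2 fell. Mmp3 (stromelysin-1) was at 929 ± 145 CPM (SD, n = 12) in CBD against 521 ± 63.2 CPM (SD, n = 3) in the vehicle libraries (log2 fold change 0.82, edgeR FDR = 0.00171), and Timp1, an inhibitor of such proteases, also rose (0.53, edgeR FDR = 0.0187). The paper describes both as downregulated at 6 h, the opposite of what the labelled groups show here. Hmox1 (heme oxygenase 1) fell by 1.19 on the log2 scale (edgeR FDR = 0.00367) and the chemokine gene Ccl2 was lower (-1.59, edgeR FDR = 0.0400), with vehicle libraries of Ccl2 from 27.2 to 226 CPM. The median of this list was -0.28.

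Among bZIP partners of AP-1, 1 of 8 was called: Atf4, an effector of the integrated stress response, was lower (465 ± 61.4 CPM (SD, n = 12) against 652 ± 120.1 CPM (SD, n = 3), log2 fold change -0.49, edgeR FDR = 0.0647), and the list's median was -0.13. Among 10 regulators of AP-1 proteins 1 was called, Dusp1, a phosphatase that inactivates MAP kinases (61.3 ± 14.1 CPM (SD, n = 12) against 113 ± 28.4 CPM (SD, n = 3), log2 fold change -0.90, edgeR FDR = 0.0169), with a list median of 0.02. Of 21 kinases and ternary complex factors upstream of AP-1, edgeR called 0, with a median of -0.03. An unadjusted p under 0.05 was found for 2 of them and for 1234 of 12012 genes. In this last list the smallest adjusted value belonged to Mrtfa, a coactivator of serum response factor (log2 fold change 0.42, edgeR FDR = 0.431).

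**Figure D4:**
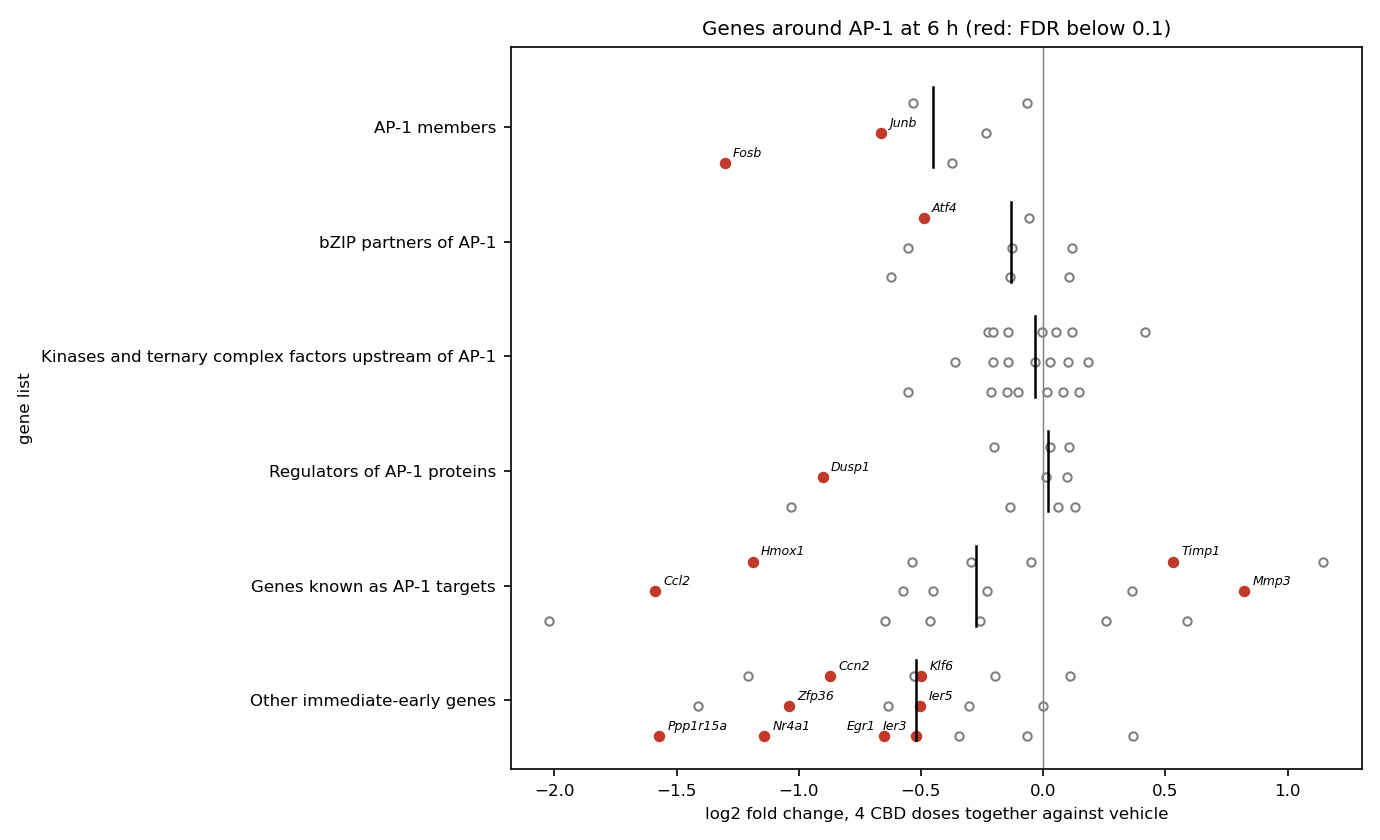
Log2 fold change of the 4 CBD doses together against vehicle at 6 h (horizontal axis) for each tested gene of the AP-1 members and 5 lists of related genes (rows), with red points at an edgeR FDR below 0.1, open points above it and a black bar at the median of each list; vertical offsets within a row only separate the points. The called members and immediate-early genes lie left of 0, and Timp1 and Mmp3 at 0.53 and 0.82.

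At 24 h with the 4 doses together, 2 genes of these lists were called. Dusp1 was at 80.1 ± 18.8 CPM (SD, n = 12) in CBD and 43.0 ± 4.502 CPM (SD, n = 3) in the vehicle libraries (log2 fold change 0.86, edgeR FDR = 0.0173), and Mmp13 (collagenase-3) at 456 ± 105 CPM (SD, n = 12) against 284 ± 47.1 CPM (SD, n = 3) (log2 fold change 0.65, edgeR FDR = 0.0443). The paper describes Mmp13 as downregulated at 24 h, again the opposite direction. The difference between the times in the CBD effect was called for Dusp1 (1.77, edgeR FDR = 0.00046) and Ppp1r15a (1.56, edgeR FDR = 0.0656). At 3 µM against the lower doses of 24 h, where 10.5% of all genes were called, the calls were 1 of 8 bZIP partners, 2 of 22 kinases and factors, 1 of 10 regulators, 3 of 17 targets and 1 of 17 other immediate-early genes. These counts are too small to be set apart from that share, and the directions that follow describe single genes. Maff (0.55), Map3k1 (0.98), Atf4 (0.33) and Ccnd1 (0.47) were higher on the log2 scale, and Mmp13 (-0.64), Mmp3 (-0.46), Dusp1 (-0.46) and Mapk7 (-1.08) lower. In vehicle from 6 h to 24 h, where 26.7% of all genes were called, 14 of 18 AP-1 targets were called, 12 of them lower at 24 h and 2, Mmp13 and Mmp3, higher, and 11 of 19 other immediate-early genes were lower and 0 higher.

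The members did not vary as a block across libraries. After subtracting the mean of each time point from log2 CPM, Pearson's r over the 30 libraries was highest between Fosb and Jun (0.63) and lowest between Fosl2 and Jund (-0.66). Leaving out the 2 libraries farthest from the median of the first of each pair gave 0.46 and -0.59. At 24 h, r between Junb and Fosl2 was 0.85, and at 6 h it was 0.06. Over the 30 libraries it was 0.49, and 0.21 without the 2 libraries farthest from the median of Fosl2. Between Fosb and Jun, r was 0.77 at 6 h and 0.22 at 24 h. These values are descriptions, since libraries of a group share its treatment and all share sequencing depth and scaling.

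Outside the family, the genes most like each member by the same measure over 30 libraries were named by rank. For Junb they were Dusp6 (r = 0.84), a phosphatase of ERK, Nfkbia (r = 0.84), the inhibitor of NF-κB, and Amotl1 (r = 0.79), and for Jund they were Sub1 (r = 0.88), Ptma (r = 0.86) and Ccnd2 (r = 0.86). The values for Fosl2 were 0.78 with Lrrc8c, 0.75 with Grtp1 and 0.74 with Nudt3, and those for Fos 0.74 with Itga6, 0.73 with Hnrnpd and 0.72 with Sez6. Jun was most like Cdkn1a (r = 0.71), Anxa2 (r = 0.70) and Ago2 (r = 0.69). Fosb had the weakest partners, Car6 (r = 0.68), Frat2 (r = 0.67) and Ctns (r = 0.67), the last of these with r = 0.09 within the 24 h libraries. Without the 2 libraries farthest from the member's median, the values were lower for all 18 pairs, at 0.75, 0.69 and 0.62 for the 3 genes most like Junb.

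**Figure D5:**
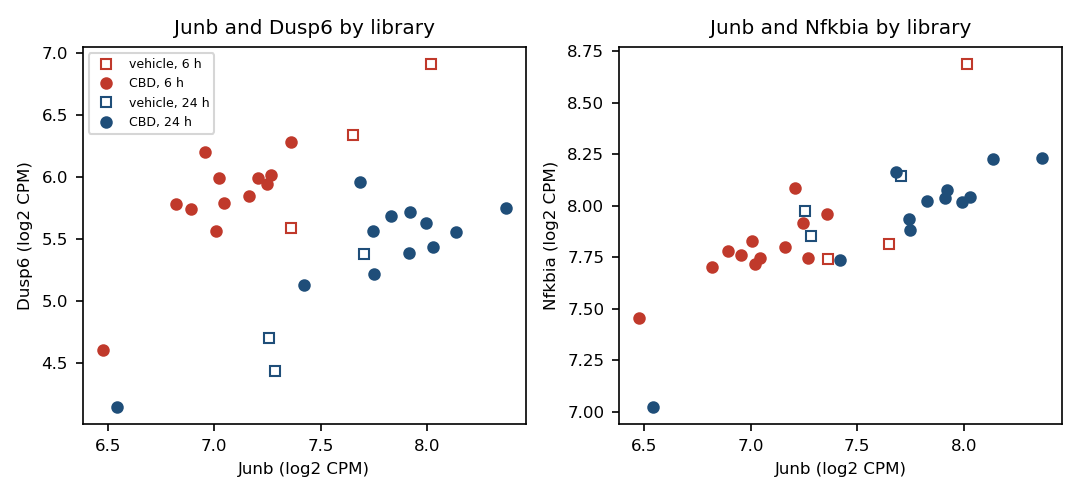
Log2 CPM of Dusp6 (left) and Nfkbia (right) on the vertical axes against log2 CPM of Junb on the horizontal axes, a point per library, vehicle as open squares, CBD as filled circles, 6 h in red and 24 h in blue. Within the 6 h libraries r was 0.83 for Dusp6 and 0.80 for Nfkbia, and within those of 24 h 0.85 and 0.87, and the library with the least Junb at each time also has the least Dusp6 and Nfkbia of that time.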

How the data were processed

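The authors trimmed reads with Flexbar, aligned them to GRCm39 with STAR 2.7.5c and counted them per Ensembl gene with HTSeq 1.99.2; the strand setting is not given in the sources used here. The deposited values are raw counts per gene, a table for each of the 30 libraries, whose summary lines (17.7% to 22.2% of reads outside genes, 4.74% to 5.08% ambiguous) were kept out of library sizes and tests. Groups came from the treatment labels of the samples, and each direction is CBD relative to vehicle as labelled. No gene with a known response checks these labels. The paper's table of enriched processes at 6 h lists Fos, Fosb, Jun and Junb, without a direction for each gene. For the lower doses at 6 h it reports top enriched processes of upregulated genes only, whereas Fosb and Junb were lower here. The paper gives Mmp3 and Timp1 as downregulated in all 6 h treatments and Mmp13 in all 24 h treatments, opposite to the directions found here. The reason was not tested, and every direction of CBD against vehicle here rests on the labels.

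Counts were fitted in R 4.3.3 with edgeR 4.0.16 and its quasi-likelihood test (filterByExpr, TMM, a mean per group), per time point (12012 genes at 6 h, 12118 at 24 h) and, between times, over all 30 libraries (12790 genes), with Benjamini-Hochberg adjustment over all genes and a threshold of 0.1. Standard errors were derived from the F statistic. Log2 CPM used a prior count of 2. The steps were tested on simulated data. Read totals of 1839621 to 4420675 limit precision, and floors of 3 reads cover counting error only.

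The genes named were the 7 members, up to 6 of each list with the smallest p, and the 3 genes most like each member. The members, the lists and the comparisons of 3 µM with the lower doses were chosen with earlier results of these data known. Alternatives were DESeq2 1.42.0, RLE scaling, other filters, other sets of libraries in the fit, the percentage of reads outside genes as a model term, and each library left out. Gene symbols and coordinates are those of GENCODE M21 (GRCm38), and promoters those of RefSeq (GRCm38.p6). Viability and qPCR data of the study were not analysed here.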

Additional observations from a re-analysis of the deposited data

Results flagged for a closer look

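The change of Junb with CBD differed between the times by a test of the difference itself: it was 1.04 higher at 24 h than at 6 h on the log2 scale (edgeR FDR = 0.0644). At 6 h, 12 of 12 CBD libraries lay below all vehicle libraries, and at 24 h, 9 of 12 lay above all of them. The groups held 3 libraries each, too few for a test of single outlying samples.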

How the results depend on the processing

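No paired analysis was possible because no label numbers the cultures across groups. Against 2 members called for the 4 doses together at 6 h, adding the percentage of reads outside genes to the model (the outside-genes term) gave 4, and leaving out a library 2 to 4. With that term 329 of 12012 genes were called, against 90 in the main fit. The member calls added over single doses at 6 h (2) became 5 with no filter, 9 with the outside-genes term, 6 in DESeq2, 1 with only the groups compared and 1 to 3 with a library left out. At 24 h (0) they became 3 with no filter, 1 with only the groups compared and 0 to 1 with a library left out. Over all genes, calls at 6 h from the lowest dose to the highest were 24, 9, 12 and 6 of 12012 in the main fit. They were 322, 119, 154 and 79 with the outside-genes term, and 151, 101, 106 and 92 of 25247 with no filter. In DESeq2 they were 71, 48, 56 and 48. At 24 h they were 8, 10, 5 and 1 of 12118 in the main fit and 79, 79, 44 and 116 of 25432 with no filter. With only the groups compared they were 0 of 11039, 2 of 11207, 0 of 10997 and 3 of 10928 at 6 h. At 24 h that setting gave 11 of 11979, 102 of 11296, 16 of 11434 and 1 of 11243. Member calls among doses at 24 h (0) became 2 with no filter, 1 in DESeq2 and 0 to 3 with a library left out. With no filter 783 of 25432 genes were called there, against 234 of 12118 in the main fit. For 3 µM against the lower doses at 24 h (4) the member calls were 0 with the outside-genes term and 0 to 4 with a library left out, for vehicle over time (3) 3 to 5, and for the interaction (1) 0 to 1. The causes were not tested.

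Signs turned for changes that had not passed. Jun at 24 h (0.0036) became -0.0013 with at least 10 counts in every library and -0.063 with the outside-genes term. With a library left out it ran from -0.055 to 0.053, and below 0 it was -0.0100 without A18, -0.0136 without A20, -0.0110 without A23, -0.0030 without A24, -0.0225 without A27 and -0.0552 without A30. For the others the log2 change with a library left out ran from -0.18 to 0.11 for Fosl2 and -0.56 to 0.0261 for Jund at 6 h, from -0.17 to 0.42 for Fosb and -0.23 to 0.0033 for Jund at 24 h, from -0.13 to 0.34 for Fosb at 3 µM against the lower doses, and from -0.0476 to 0.24 for Fosl2 and -0.14 to 0.45 for Jund in the interaction. Fosb and Junb at 6 h with the 4 doses together kept sign and call under all 6 other settings and all 15 left-out libraries. Differences among doses and 3 µM against lower doses at 6 h, and CBD against vehicle at 24 h, stayed at 0 members called in all of these, and CBD over time at 6. Fosl1 could not be tested at this depth, and Fosb rested on 11 to 88 reads per library.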
